A study of Mus musculus with 4 samples.

Results

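The genes described here are Tgfb1, which encodes the cytokine TGF-beta 1, the receptor genes Tgfbr1 and Tgfbr2, and the signalling genes Smad2, Smad3, Smad4 and Smad7. They were taken as every probe set of the array that the platform annotation pairs with a single one of these 7 symbols, which gave 1 probe set for each of the 7 genes, among 8251 genes named on the array. The study compared RNA of resting mouse Th1 cells of a clone (control, 2 arrays) with RNA of the same kind of cells rendered anergic by plate-bound anti-CD3 antibody (anergic, 2 arrays). Th1 cells are CD4 helper T cells known for interferon gamma, and anergic T cells respond poorly when they next meet their stimulus. Both groups come from cloned cells, so they stand for a cloned line and not for the T cells of an animal. The sources used here do not give the mouse strain, the length of the antibody treatment or any rest after it. Whether the 2 arrays of a group stand for separate cultures is not stated in the labels, so the p-values measure only the spread between these samples, which may be technical.

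TGF-beta 1 is secreted in a latent form, held by its own propeptide, and must be released before it binds its receptor. It brings together a type II receptor (Tgfbr2) and a type I receptor (Tgfbr1), and the type I receptor phosphorylates Smad2 and Smad3. These then enter the nucleus with Smad4 and change transcription, while Smad7 blocks the type I receptor and is itself induced by the pathway. In T cells TGF-beta 1 is known for restraining proliferation and effector functions and for its part in regulatory T cells.

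The values are intensities on a linear scale that had been scaled to a common trimmed mean before deposit. Control array 2 stood apart from the others in its 9 bacterial spike-in probe sets, with a geometric mean of 1972 there against 870.4 to 1014 on the other 3 arrays, so values without it are given below for the tested members and for other pathway genes whose call changed. The T cell genes Cd3e (5974 to 10102) and Cd4 (3942 to 5106) were bright on all 4 arrays. A probe set was tested when its mean log2 value lay above the 40th percentile, which 7453 did. Limma with Benjamini-Hochberg adjustment called 100 of these at an adjusted p under 0.05, or 1.34%, with 68 higher and 32 lower in anergic cells. With each array centred on its median, 52 were higher and 12 lower, and the median difference over the tested probe sets moved from -0.09 to 0.02. The smallest two-sided p of an exact permutation test in this design is 0.333, so each call rests on the spread that limma shares between probe sets.

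Tgfb1 rose in anergic cells, and it was the 1 member that passed among the 5 tested, where 1.34% of all tested probe sets passed. Its intensity was 1004 and 1012 on control arrays 1 and 2, and 2829 and 2669 on anergic arrays 1 and 2. Both anergic arrays lay far above both control arrays, and the arrays within each group lay close together. The control mean was 1008 ± 5.59 and the anergic mean 2749 ± 113 (SD, n = 2 each), a ratio of 2.73. On the log2(value + 29.26) scale used for all tests, the difference was 1.42 ± 0.23 (SE, 95% interval 0.90 to 1.94, adjusted p = 0.0276 in limma). It ranked 61 by p among the 7453 tested probe sets, and 96 of these, itself included, rose by as much or more. More RNA per cell and more cells that make it cannot be told apart in such bulk RNA, and the same holds for every gene below.

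The size of the Tgfb1 difference hardly moved when an array was left out. It was 1.42 without control array 1 and 1.43 without control array 2, with the SE rising from 0.23 to 0.31 and 0.32. It was 1.38 without anergic array 1 and 1.46 without anergic array 2, with an SE of 0.36 in both. Tgfb1 passed with either control array left out, and did not pass with either anergic array left out. A group left with 1 array is assumed to vary like the other group. It also missed the threshold with each array centred on its median (1.53, adjusted p = 0.158) and without the intensity trend in limma's variance estimate (1.42, adjusted p = 0.128).

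**Figure D1:**
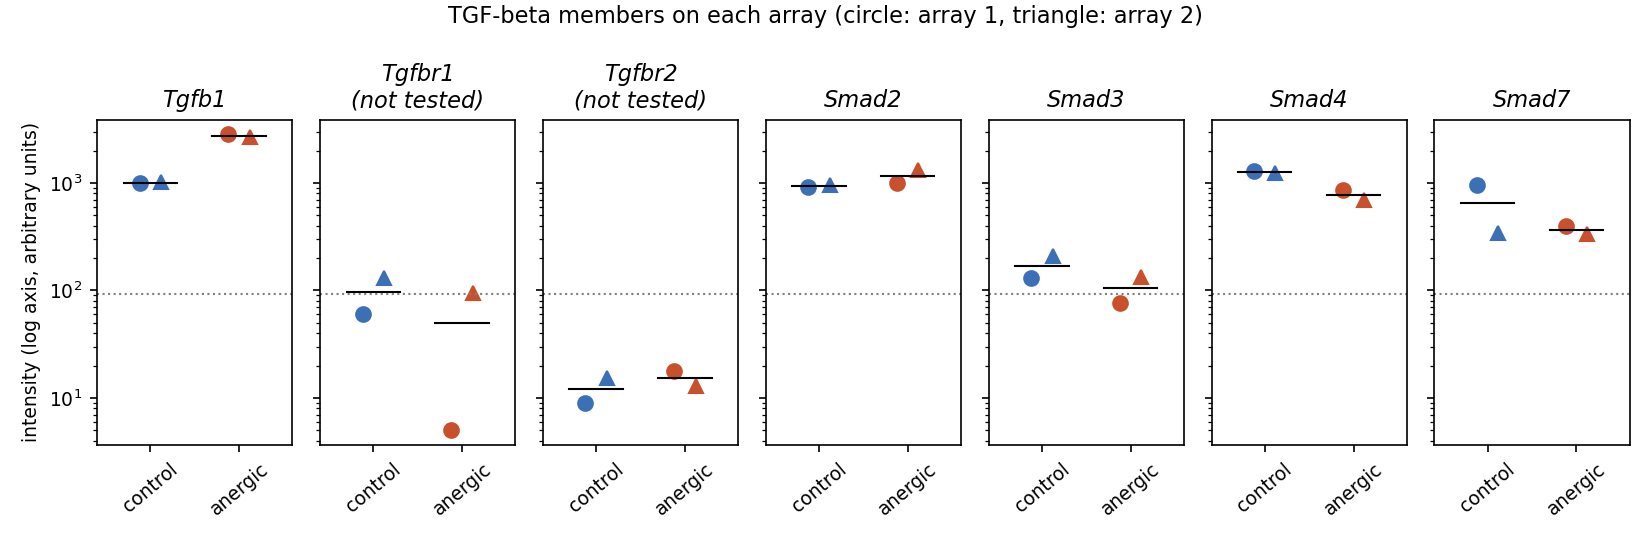
Intensity of each member on the 4 arrays (vertical log axis, arbitrary units), with control in blue and anergic in orange, array 1 as a circle, array 2 as a triangle and the group mean as a line. The dotted line marks an intensity of 92.4, where the filter on the mean lies. Tgfb1 separates the groups from about 1008 to 2749, Smad4 separates them downwards, and Smad7 is high on control array 1 alone.

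The stretch before the start of Tgfb1 is shown because this gene carried the one call among the members. RefSeq gives 1 transcript start for it in GRCm38.p6, on the forward strand of chromosome 7, and the 250 bases before that start lie at chr7:25686752-25687001. In the order of protein-coding genes by start, B9d2 comes directly before Tgfb1. The capitals mark matches to the GC box GGGCGG on either strand, the letters bound by Sp-family factors.

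Tgfb1 promoter: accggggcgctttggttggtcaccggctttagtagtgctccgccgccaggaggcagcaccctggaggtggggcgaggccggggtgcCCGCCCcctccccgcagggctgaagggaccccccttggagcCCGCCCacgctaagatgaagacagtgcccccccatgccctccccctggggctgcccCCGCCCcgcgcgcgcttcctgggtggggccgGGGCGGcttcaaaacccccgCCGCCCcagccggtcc

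This window held 5 GC boxes, and 32.7% of the 32851 windows of this length in the RefSeq promoter table held at least 1. It held 1 match to the Egr motif GCGNGGGCG, which overlaps a GC box, against 4.7% of all windows with a match. G and C made up 75.2% of its bases, against a median of 52.4% over all windows, and both motifs consist largely of these bases. The AP-1 motif TGANTCA, the cyclic AMP element TGACGTCA, the palindromic Smad element GTCTAGAC and the TATA box TATAAA had no match there on either strand, while 6.75%, 1.55%, 0.167% and 12.4% of all windows held them. A match describes these letters and was not linked to the values of the arrays.

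The receptor genes gave weak signals and were not tested. Tgfbr1, which encodes the type I receptor kinase, was at 61 and 131 on the control arrays and at 5 and 94.6 on the anergic arrays. The groups overlap, and the lowest value lies on anergic array 1. Tgfbr2, which encodes the type II receptor, was at 9 and 15.2 in control and at 17.9 and 12.9 in anergic cells, so its groups overlap too. On the intensity scale the filter corresponds to a mean of 92.4, and their means on that scale were 59.3 and 13.6. Had they been tested with no filter, the log2 differences would have been -0.89 (95% interval -2.41 to 0.63, adjusted p = 0.818 in limma) and 0.11 (-0.37 to 0.59, adjusted p = 0.964). These probe sets leave the receptor levels of the clone unresolved, since detection calls were not used here and a weak probe set cannot be told from a weakly expressed gene.

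The receptor-activated Smads were both measured and neither passed. Smad2 was at 919.9 and 951.5 on the control arrays and at 994.1 and 1315 on the anergic arrays. The groups do not overlap, but the gap between them is narrow and anergic array 2 lies apart from the other 3. The log2 difference was 0.28 ± 0.26 (SE, 95% interval -0.32 to 0.88, adjusted p = 0.789 in limma). Smad3, a dimmer probe set, was at 129.3 and 208.8 in control and at 77.2 and 132.4 in anergic cells. In both groups array 2 was the higher one, and anergic array 2 reached just above control array 1. The log2 difference of Smad3 was -0.57 ± 0.46 (SE, 95% interval -1.62 to 0.49, adjusted p = 0.746 in limma). Both intervals include 0 and allow a difference of either sign. Leaving out 1 array gave between 0.08 and 0.48 for Smad2 and between -0.87 and -0.27 for Smad3. Without control array 2 the differences were 0.31 for Smad2 and -0.27 for Smad3.

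Smad4, the shared partner of the activated Smads, lay lower in anergic cells without passing the adjusted threshold. Its intensity was 1280 and 1234 on the control arrays and 867.6 and 692 on the anergic arrays, so the groups do not overlap. The control mean was 1257 ± 32.7 and the anergic mean 779.8 ± 124 (SD, n = 2 each), a ratio of control to anergic of 1.61. The log2 difference was -0.68 ± 0.26 (SE, 95% interval -1.26 to -0.09), with an unadjusted p of 0.0286 and an adjusted p of 0.353 in limma. Of the 7453 probe sets 11.3% had an unadjusted p under 0.05, and among the 5 tested members Tgfb1 and Smad4 did. Leaving out 1 array gave between -0.83 and -0.52, lower in anergic cells each time, and none of these passed after adjustment. Without control array 2 the difference was -0.70.

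Smad7, the inhibitory Smad, had a value that rests on 1 control array. It was at 956.1 on control array 1 and at 339.6 on control array 2, and at 398.7 and 332.8 on anergic arrays 1 and 2. Control array 2 thus lay among the anergic arrays, and the groups overlap. The log2 difference was -0.62 ± 0.45 (SE, 95% interval -1.66 to 0.43, adjusted p = 0.711 in limma). Without control array 1 it was 0.09 (adjusted p = 0.964), and without control array 2 it was -1.32 and passed (adjusted p = 0.0322). Control array 2 lay at -1.42 against control array 1 on the log2 scale, further apart than the groups.

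**Figure D2:**
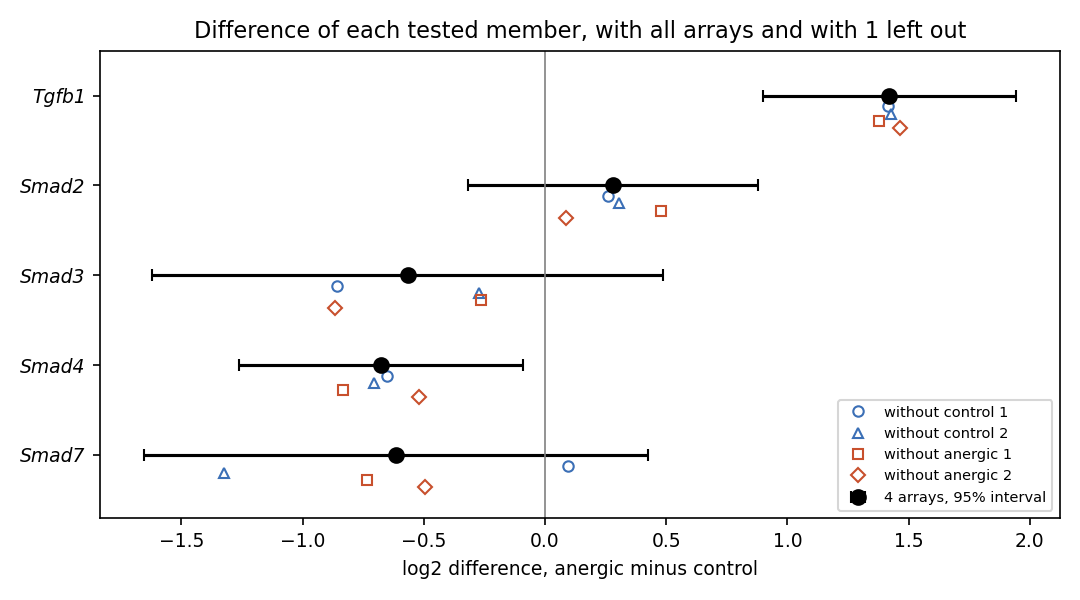
Log2 difference, anergic minus control, of the 5 tested members (horizontal axis), with all 4 arrays as a filled point with its 95% interval and with 1 array left out as open symbols. Tgfb1 stays between 1.38 and 1.46, while Smad7 runs from -1.32 to 0.09.

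Over the 5 tested members 3 had groups that do not overlap (Tgfb1 and Smad2 higher, Smad4 lower in anergic cells), and 40.3% of all tested probe sets had such groups. Their median log2 difference was -0.57, against -0.09 over all tested probe sets. Tgfb1 and Smad2 had positive differences and Smad3, Smad4 and Smad7 negative ones, of which Tgfb1 passed, and the sign of Smad7 turned without control array 1.

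**Figure D3:**
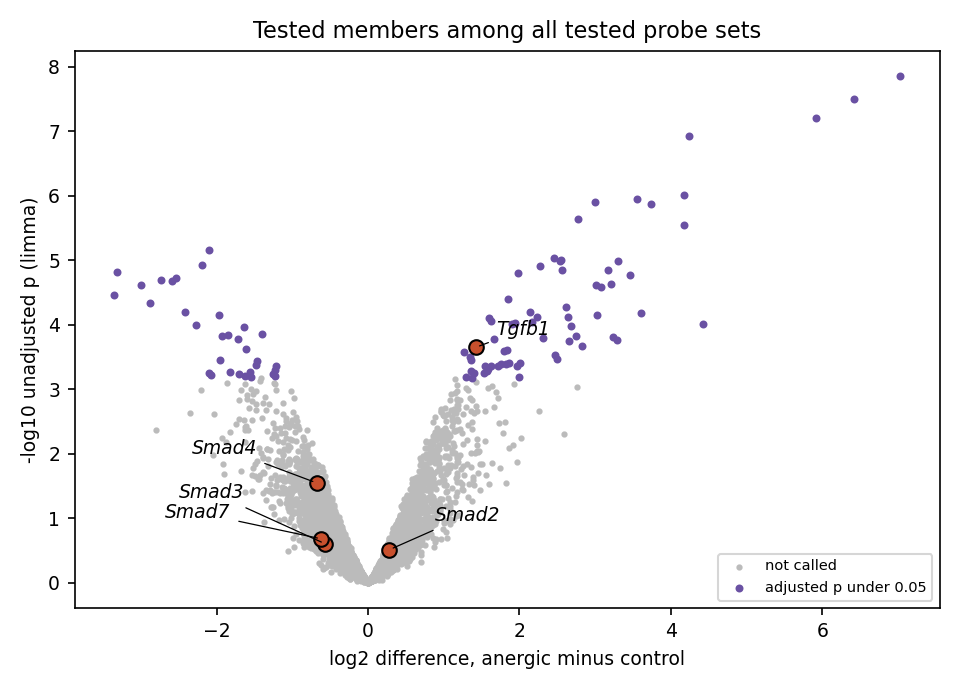
Log2 difference (horizontal axis) against -log10 of the unadjusted limma p (vertical axis) for the 7453 tested probe sets, with those at an adjusted p under 0.05 in purple and the 5 tested members in orange. Tgfb1 at 1.42 lies among the called probe sets, and the 4 Smads lie among those that were not called.

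The rest of the pathway was followed through 7 lists, each gene by its brightest tested probe set. They held 54 distinct tested genes, of which 0 were called higher and 1 lower in limma (background 0.912% higher and 0.429% lower), and 11 had an unadjusted p under 0.05, where the share over all tested probe sets was 11.3%. The calls depended on the arrays of both groups and on the processing. Without control array 2, where 211 probe sets were called higher and 143 lower over the whole table, 4 of the 54 were called higher and 3 lower. Without control array 1, with 154 and 136 over the whole table, 3 were called higher (Skil, Cdkn1a and Junb) and 2 lower (Id2 and Myc).

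Among the other ligands of the family 21 of 24 were on the array and 7 were bright enough to be tested. None of the 7 passed in limma, and none had an unadjusted p under 0.05. Tgfb3, the closest relative of Tgfb1 among them, was at 159.5 and 204.9 in control and at 173.9 and 142.7 in anergic cells, with a log2 difference of -0.17. Inhba, the activin A subunit gene, was at 573.9 and 598.1 in control and at 797.4 and 669.1 in anergic cells. Its anergic arrays were both higher, with a log2 difference of 0.30 ± 0.27 (SE, adjusted p = 0.771 in limma). The inhibin alpha gene Inha differed by 1.09 ± 0.55 and Lefty1, an antagonist of Nodal, by -0.99 ± 0.71 (SE). Both were dim, and Lefty1 reached 386.3 on control array 2 against 46.5 to 101.6 on the other arrays. The control mean of Inha (82.7) and the anergic mean of Lefty1 (74.05) lie below the 92.4 of the filter. Inha was thus tested because of its anergic values, and Lefty1 because of its control values. The median over the list was -0.17. Tgfb3 is named here after its value was seen.

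Genes that hold or release latent TGF-beta were tested for 5 of the 10 on the array, and none passed in limma, with 1 at an unadjusted p under 0.05. Itgav, the integrin chain that binds the latent complex, was at 2028 and 2478 on the control arrays and at 4792 and 4176 on the anergic arrays. Both anergic arrays lay above both control arrays, with a log2 difference of 0.99 ± 0.23 (SE, unadjusted p = 0.00252, adjusted p = 0.107 in limma). The other tested probe sets of Itgav differed by 0.77 ± 0.43 and -0.58 ± 1.07 (SE). The groups of the latter overlap, at 36.5 and 427.5 in control and at 275.8 and 15.1 in anergic cells. Itgav thus had a negative difference only at this scattered probe set. Without control array 2 its brightest probe set passed (1.13, adjusted p = 0.00357). Furin, the protease that cuts the propeptide, was at 1642 and 2297 in control and at 1369 and 1541 in anergic cells (log2 difference -0.41 ± 0.26 SE, adjusted p = 0.626). The latent binding protein gene Ltbp4 differed by 0.43 ± 0.38 (SE). The list's median was 0.43.

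The other receptors of the family gave no call in limma among 5 tested of 10 on the array, and none had an unadjusted p under 0.05. All 5 differences were negative on the deposited scale and 4 of 5 after quantile normalization or centring, with a median of -0.34. Acvrl1, 1 of the 5, differed by -0.09, while its other tested probe set differed by 0.71 ± 0.53 (SE). The sign of Acvrl1 thus depends on the probe set. The groups overlapped for each of the 5, where 40.3% of all tested probe sets had groups that do not overlap. Eng, a coreceptor, differed by -0.49 ± 0.47, Tgfbr3, the coreceptor betaglycan, by -0.34 ± 0.42, and Bmpr1a, a BMP type I receptor, by -0.40 ± 0.54 (SE). The anergic mean of Bmpr1a, 87.7, lies below the intensity of the filter, so Bmpr1a was tested because of its control values. Of the other Smads 3 were on the array and 1 was tested, the inhibitory Smad6. It was at 101.2 and 213.5 in control and at 64.3 and 154.7 in anergic cells (log2 difference -0.44 ± 0.53 SE, adjusted p = 0.871 in limma).

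Partners and regulators of the receptor and the Smads were tested for 17 of the 19 on the array. None passed in limma, 3 had an unadjusted p under 0.05 (11.3% over all probe sets), and the list's median was -0.13. Ski, a corepressor that binds Smads, was at 2618 and 1753 in control and at 842.7 and 1218 in anergic cells. Both anergic arrays lay below both control arrays, with a difference of -1.06 ± 0.30 on the log2 scale (SE, adjusted p = 0.188). The ubiquitin ligase gene Traf6, part of the Smad-independent branch, differed by -0.81 ± 0.31 (SE, adjusted p = 0.359), and its other tested probe sets by -0.48 and -0.67. Strap, whose product binds the receptors and holds Smad7 to them, differed by -0.81 ± 0.34 (SE, adjusted p = 0.415). Without control array 2 Ski (-1.34, adjusted p = 0.0031) and Strap (-1.24, adjusted p = 0.0296) passed. Skil, a corepressor related to Ski and named here after its value was seen, had groups that overlap. It was at 418.2 and 57.1 in control and at 300.6 and 280.6 in anergic cells. Its log2 difference was 0.70 ± 0.68 (SE, adjusted p = 0.81 in limma). This difference was 1.89 without control array 1 and -0.49 without control array 2.

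The next list holds genes taken as induced by TGF-beta through Smads. Their induction in these cells was not tested. They had differences of both signs, and none of 14 tested passed in limma. Of these 5 had an unadjusted p under 0.05, where the share over all probe sets was 11.3%, and the list's median was -0.08 (0.03 after centring). Cdkn1a, the gene of the cell cycle inhibitor p21, was at 645.5 and 471.9 in control and at 1328 and 1075 in anergic cells. Its groups do not overlap, the log2 difference was 1.07 ± 0.28 (SE, adjusted p = 0.154), and 1.11 was found at the remaining probe set of the gene. Junb, an AP-1 subunit gene, was at 1472 and 607.7 in control and at 5021 and 1807 in anergic cells. Array 1 was the brighter in both groups, and the log2 difference was 1.64 ± 0.52 (SE, adjusted p = 0.258), with 1.56 at its other probe set. Klf10, an immediate target of the pathway in many cells, was at 3710 and 1501 in control and at 1036 and 1178 in anergic cells. Its control arrays lay both above the anergic ones but far from each other, with a log2 difference of -1.08 ± 0.39 (SE, adjusted p = 0.336), while the remaining probe set gave -1.12. Id2, which encodes an inhibitor of DNA-binding factors, differed by -0.60 ± 0.23 (SE, adjusted p = 0.362). Ski and Skil also belong to this list. Klf10 and Id2 are named here after their values were seen. Without control array 2 Junb (1.02, adjusted p = 0.0253) and Klf10 (-1.72, adjusted p = 1.6e-05) passed. Without control array 1 it was Cdkn1a (1.29, adjusted p = 0.0332), Junb (2.26, adjusted p = 3.88e-05) and Id2 (-0.82, adjusted p = 0.0316) that passed.

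**Figure D4:**
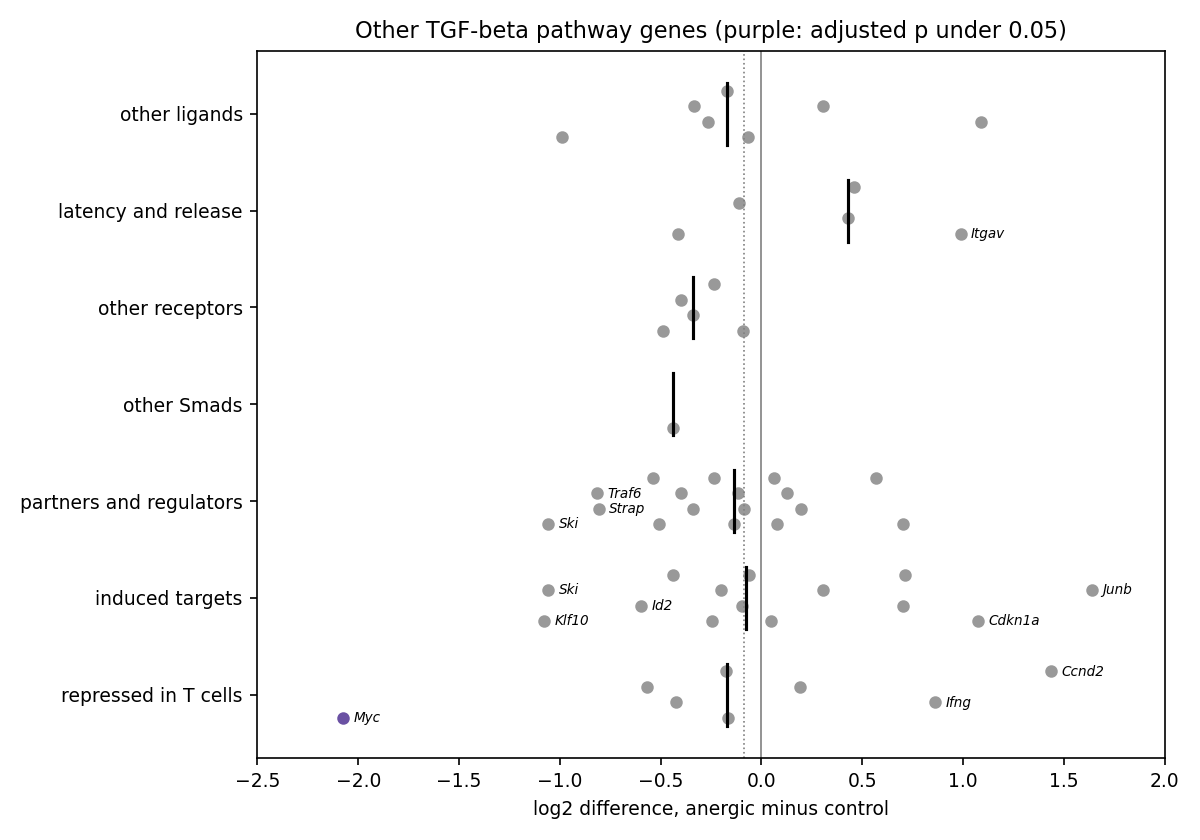
Log2 difference, anergic minus control (horizontal axis), of each tested gene in the 7 lists of other pathway genes, with the list's median as a black bar and the median of all tested probe sets as a dotted line. Genes with an unadjusted p under 0.05 are named, and Myc at -2.07 is the one that passed after adjustment.

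Of the genes known to be repressed by TGF-beta in T cells, 8 of the 11 on the array were tested, with a median of -0.17. In limma 1 was called lower and 0 higher, where 0.429% of all tested probe sets were called lower and 0.912% higher. An unadjusted p under 0.05 was found for 3 of the 8, against 11.3% of all tested probe sets. Myc, a driver of T cell growth, was at 377.6 and 516.5 in control and at 66.4 and 101.5 in anergic cells. The groups do not overlap, with a log2 difference of -2.07 ± 0.38 (SE, adjusted p = 0.0482 in limma). Its anergic mean of 84 lies below the 92.4 of the filter, so Myc was tested because of its control values, and with no filter it did not pass (adjusted p = 0.123). Leaving out control array 2 ended its call (-1.86, adjusted p = 0.063), as did leaving out anergic array 1 (-1.85, adjusted p = 0.275) or 2 (-2.30, adjusted p = 0.0778). Also under an unadjusted p of 0.05 were Ifng and Ccnd2, named here after their values were seen, with positive differences. The Th1 cytokine gene Ifng differed by 0.86 ± 0.24 (SE, adjusted p = 0.184). The gene of cyclin D2, Ccnd2, was at 352.2 and 838.9 in control and at 1254 and 1865 in anergic cells (log2 difference 1.44 ± 0.41 SE, adjusted p = 0.191). Without control array 2 the list had 2 genes called higher, Ifng (1.01, adjusted p = 0.013) and Ccnd2 (2.03, adjusted p = 3.45e-06), and 0 called lower.

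The probe sets most like Tgfb1 over the 4 arrays were those of Cars, Ap3s1 and St13. Likeness was the Euclidean distance between log2 values after each probe set was centred on its own mean, which was 0.104, 0.111 and 0.151. Ap3s1, which encodes a subunit of an endosomal adaptor complex, was at 1251 and 1198 in control and at 3386 and 2973 in anergic cells (log2 difference 1.35, adjusted p = 0.0348 in limma). St13, the gene of a cochaperone of Hsp70, was at 708.7 and 727.1 in control and at 1925 and 1682 in anergic cells (1.29, adjusted p = 0.0496). Cars, a transfer RNA synthetase gene, was dim, at 62.2 and 64.4 against 238.1 and 199 (1.42, adjusted p = 0.221). Its control mean of 63.3 lies below the intensity of the filter, so Cars was tested because of its anergic values. With 4 arrays in 2 groups, likeness reflects mostly the difference between the groups.

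Neighbours of Tgfb1 in the order of protein-coding genes, 5 on each side, were looked up after its value was known. Of these 5 were on the array, 4 were tested and 0 passed in limma. An unadjusted p under 0.05 was found for 1 (Axl), where the share over all tested probe sets was 11.3%. On one side Bckdha, an enzyme gene of branched-chain amino acid breakdown, differed by 0.11 ± 0.28 and the RNA exosome gene Exosc5 by -0.15 ± 0.23 (SE). On the other side Axl, a receptor tyrosine kinase gene, was at 174.1 and 247 in control and at 29.7 and 46.5 in anergic cells. Both its anergic arrays were lower, with a log2 difference of -1.83 ± 0.47 (SE, unadjusted p = 0.00461, adjusted p = 0.149). Its anergic mean of 38.1 lies below the intensity of the filter, so Axl, like Myc, was tested because of its control values.

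TGF-beta 1 is also made by platelets, macrophages and stromal cells, so the summed intensities of marker genes of other cells stand here beside the rise of Tgfb1. The 12 macrophage and dendritic cell markers summed to 1507 and 2020 in control and to 1729 and 2543 in anergic cells, and 6 of the 12 lay below the filter (Adgre1, Lyz2, Itgam, C1qa, Mrc1 and Marco). Of the 6 tested, Cd68, which encodes a lysosomal membrane protein, rose from 71 and 91.3 to 497.6 and 531.5 (adjusted p = 0.0216 in limma). Its control mean of 81.15 lies below the intensity of the filter, so Cd68 was tested because of its anergic values. The other 11 markers summed to 1436 and 1928 in control and to 1232 and 2012 in anergic cells, with Cd14 at 764.1 and 931.9 in control and at 684.4 and 858.2 in anergic cells. Among the 6 below the filter, Lyz2 fell from 129.1 and 73.3 to 11.7 and 11.4. C1qa fell from 73.2 and 45.8 to 24.3 and 37.4, while Adgre1 rose from 24 and 20.2 to 36.4 and 36.9. The groups of Itgam, Mrc1 and Marco overlap. The 5 platelet and erythroid markers summed to 301.4 and 605.5 in control and to 313.1 and 466.4 in anergic cells, and the platelet chemokine gene Pf4 lay below the filter. The 9 fibroblast markers summed to 17010 and 15219 in control and to 13254 and 14587 in anergic cells, most of it from Thy1, which T cells also express. Among them Lum, which encodes a matrix proteoglycan, was at 1674 and 2519 in control and at 4398 and 3752 in anergic cells (unadjusted p = 0.00601, adjusted p = 0.172). Markers of B cells (7, from 756 to 1797), of granulocytes and mast cells (9, from 393.8 to 820) and of NK cells and CD8 T cells (4, from 4365 to 5577) gave no call in limma, and neither did the fibroblast, platelet and erythroid markers or the 10 T cell markers (40122 to 53407). In these lists Lum, Thy1 and Cd3d had an unadjusted p under 0.05, with Thy1 lower and the others higher in anergic cells. Thy1 was at 13440 and 10658 in control and at 7301 and 8521 in anergic cells. Cd3d was at 2068.3 and 3602.2 in control and at 4794.5 and 4046.4 in anergic cells. Nearly all of the NK and CD8 sum came from Klrd1 (4304 to 5511), while Cd8a, Cd8b1 and Ncr1 lay below the filter. The marker genes named here were picked after their values were seen. No marker was listed at 0 on any array. The part of other cells in the rise of Tgfb1 was not tested.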

How the data were processed

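The authors' deposited intensities, 1 linear value for each probe set on each array, were used. Per the labels' protocols, Trizol was used for RNA extraction and targets were biotinylated cRNA. The sources used here do not give the array software or how probes were combined. The mean after trimming 2% at each end was 500.3 on every array. GEO's platform annotation named the probe sets, and RefSeq (GRCm38.p6) served to check symbols by gene ID and gave the promoter sequences. Among the 12488 probe sets, 66 were controls and 10833 carried 1 symbol, whereas 396 carried several and 1193 carried none in that annotation.

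Values were transformed as log2(value + 29.26), the pseudocount being the median of the 4 arrays' 20th percentiles, and fold changes of dim genes are understated on this scale. Control probe sets were left out and the filter kept 7453 probe sets, compared two-sided by limma (version 3.58.1, R 4.3.3) with lmFit and eBayes, a variance trend on intensity, and 2 residual and 6.17 prior degrees of freedom. Adjusted p-values are limma's over all 7453 with Benjamini-Hochberg adjustment at 0.05. Members, lists and tests were chosen with earlier results of these data known. The genes named are the 7 members; per list, the called genes or, with no call, the 3 with the smallest p; the 3 probe sets most like Tgfb1; and Cd3e and Cd4. Other gene names are marked. The precision is limited by 2 arrays per group.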

Additional observations from a re-analysis of the deposited data

How the results depend on the processing

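Under 14 alternatives (13 for Smad3, which the 60th percentile filter removed) the direction of Tgfb1, Smad2, Smad3 and Smad4 held, with Tgfb1 between 1.31 and 1.53. Tgfb1 did not pass with arrays centred on the median (1.53, adjusted p = 0.158), with no intensity trend (1.42, adjusted p = 0.128) or without either anergic array. Leaving out 1 array gave 1.38 to 1.46 for Tgfb1 and -1.32 to 0.094 for Smad7, the value of 0.094 without control array 1 being the one reversal. The causes of these changes were not tested.

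Over all probe sets, 68 higher and 32 lower became 42 and 17 with no filter, 28 and 10 with no intensity trend, and 52 and 12 with centring. Leaving out 1 array gave 27 to 211 higher and 12 to 143 lower. Among the 54 other pathway genes, the 1 lower (Myc) became 0 with a pseudocount of 1, with no filter, with the 60th percentile filter (which removed Myc) and with no intensity trend. Leaving out 1 array gave 0 to 4 higher and 0 to 3 lower.

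The arrays share only the numbers 1 and 2. Deviations of same-numbered arrays from their group means correlated at 0.537 over probe sets. With the replicate number as a block, 389 probe sets were higher and 372 lower, and Smad4 passed (-0.68, adjusted p = 0.0479). Tgfb1 passed too (adjusted p = 0.000355), and 5 other pathway genes were higher and 4 lower.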
